A study of Mus musculus with 27 samples.

Results

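The 9 genes described here are Ect2 and the genes of the central spindle, contractile ring and midbody with which it acts in cytokinesis: Racgap1, Kif23, Prc1, Kif20b, Anln, Cit, Gas2l3 and Cep55. They were taken by symbol from a table of 24062 gene symbols, and each of the 9 was present and passed the filter on low counts in every fit. Bulk RNA sequencing was measured in 27 libraries from C57BL/6 mice, in 9 groups of 3. Mouse embryonic fibroblasts, primary cells grown out of embryos, came from 2 numbered experiments and were asynchronously dividing cells of early passage at about 90% confluence. The genotype labels were WT, KO and KO-NTD in experiment 1 and WT, WT-NTD, Het and Het-NTD in experiment 2, and whole lungs of animals aged 10 days were WT or Het. The title of the series gives FoxM1 as the altered gene. The labels do not say how the KO and Het alleles were made or what NTD stands for. They also do not say whether libraries came from separate embryos, animals or cultures, so p-values measure the spread between these libraries only.

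Cytokinesis begins when the midzone microtubules of the anaphase spindle mark the cell equator. Centralspindlin, built from the GTPase-activating protein Racgap1 and the kinesin Kif23, gathers there and recruits Ect2, the exchange factor that loads the small GTPase RhoA with GTP. Active RhoA turns on formins and myosin in the contractile ring. Prc1 cross-links the midzone microtubules and Kif20b is a kinesin of the midzone and midbody. Anln, which encodes anillin, ties RhoA, actin, myosin and septins together, and Cit encodes citron kinase of the ring and midbody. Cep55 brings the ESCRT machinery to the midbody for abscission, and Gas2l3 binds both actin and microtubules and acts at the same step. Many genes of this set are transcribed in G2 and mitosis through a promoter element called the CHR (cell cycle genes homology region), which the MuvB complex binds. FoxM1 is a forkhead transcription factor that is recruited to such promoters.

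The members' promoters are shown next, and whether a motif bears on any difference in RNA was not tested. Windows of 100 bases, from 70 before to 30 after the transcription start, were taken from RefSeq on GRCm38.p6, and all 9 members had an entry. In each sequence, written 5′ to 3′ on the gene's strand, capitals mark a CHR (TTTGAA or TTCGAA, searched on both strands, so that TTCAAA is a CHR on the opposite strand). Ect2 (chr3:27153825-27153924, minus strand), the centralspindlin pair Racgap1 (chr15:99651627-99651726, minus) and Kif23 (chr9:61946770-61946869, minus), the abscission genes Gas2l3 (chr10:89443938-89444037, minus) and Cep55 (chr19:38054971-38055070, plus), and Cit (chr5:115845586-115845685, plus) read as follows.
Ect2: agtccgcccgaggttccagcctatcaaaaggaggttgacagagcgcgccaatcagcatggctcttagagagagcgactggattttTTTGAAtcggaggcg
Racgap1: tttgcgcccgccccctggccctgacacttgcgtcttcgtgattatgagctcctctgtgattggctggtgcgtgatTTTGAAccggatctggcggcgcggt
Kif23: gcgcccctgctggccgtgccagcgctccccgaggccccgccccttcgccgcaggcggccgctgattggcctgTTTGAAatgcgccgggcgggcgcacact
Gas2l3: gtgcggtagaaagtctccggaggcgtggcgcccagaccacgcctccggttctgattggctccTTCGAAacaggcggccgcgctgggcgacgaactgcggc
Cep55: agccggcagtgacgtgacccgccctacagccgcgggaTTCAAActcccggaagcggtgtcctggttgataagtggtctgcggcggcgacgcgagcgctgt
Cit: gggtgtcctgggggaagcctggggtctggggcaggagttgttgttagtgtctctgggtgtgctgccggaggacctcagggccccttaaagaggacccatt
Within the full promoter entries, which run from 250 bases before to 50 after each listed start, a CHR was present in 8 of the 9 members. Among all 27025 genes with an entry, 21.7% held one. Cit had none at its 1 listed start, base 115845656. GENCODE begins the Cit gene further upstream, at base 115845278, outside this entry. No motif was searched for around that upstream start, so a CHR there is not excluded. Kif20b held 2 adjoining copies of the CHR, at bases 8 to 13 and 14 to 19 after its start, and the TTCGAA form was the one found in Gas2l3. The box of the factor NF-Y (CCAAT, searched on both strands) was found in 5 members (Ect2, Racgap1, Kif23, Prc1 and Gas2l3) and in 41.1% of all genes. The forkhead core TAAACA, searched on both strands, was found in Ect2 alone among the members, at the more upstream of its 2 listed starts, and in 15.1% of all genes. Outside the members, 14 of the 17 listed mitotic genes with an entry held a CHR, against 2 of 15 listed genes of the G1/S transition. A match is a run of letters in this window and not a measured binding site.

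**Figure D1:**
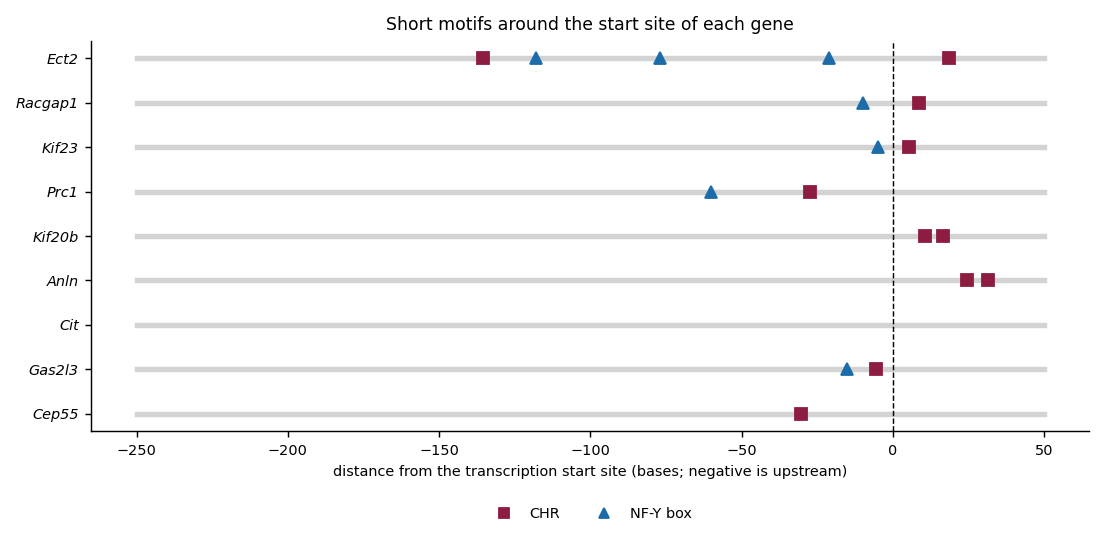
Position of each motif match relative to the transcription start site (horizontal axis, bases, negative is upstream) for the 9 genes (rows), at the most downstream start listed. Squares mark a CHR and triangles a CCAAT box (NF-Y box); 8 of the 9 rows carry a square and Cit carries no mark.

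Library totals were 47380829 to 69517834 counts in experiment 1, 30247046 to 46625753 in experiment 2 and 29730693 to 50326730 in lung, and the members' counts ran from 117 to 24840 per library. Levels are given in CPM, counts relative to a library total that was scaled by the TMM method within an experiment. Foxm1, the gene the labels point to, was at 134, 140 and 136 CPM in the WT libraries of experiment 1. It was at 139, 149 and 152 CPM in the libraries labelled KO, so its count was not lower on average. A count of the whole gene does not show whether part of the transcript was altered. With NTD in the label Foxm1 was at 333 to 390 CPM in experiment 1 and at 293 to 406 CPM in experiment 2, above every library without it. Foxm1 was at 145, 147 and 149 CPM in WT and 126, 131 and 130 CPM in Het fibroblasts, which was not called (edgeR adjusted p = 0.249). The 8 fibroblast markers were present in each fibroblast group and summed to 31967 CPM or more per library. The 5 alveolar type 2 markers summed to 14410 CPM or more in each lung library and to at most 19.9 CPM in each fibroblast library, where Sftpa1 was at 0 in all 7 groups. The 11 macrophage markers present in the table summed to 169 to 200 CPM in WT fibroblasts of experiment 2 but to 10.4 to 66.4 CPM in Het fibroblasts, and to 56.5 to 95.1 CPM in WT and 10.6, 384 and 260 CPM in the libraries labelled KO.

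Every member was far more abundant in fibroblasts than in whole lung. On a scale common to all 27 libraries Ect2 was highest in WT of experiment 1, at 112 ± 8.57 CPM (SD, n = 3), followed by the libraries labelled KO (104 ± 10.6) and KO-NTD (103 ± 11.7), and these 3 groups overlapped. WT (83.2 ± 5.12) and WT-NTD (77.0 ± 8.70) of experiment 2 came next, overlapped each other and lay below every library of experiment 1. Het-NTD (63.4 ± 3.01) and Het (60.8 ± 2.92) overlapped each other and lay below every WT-NTD library. Lung followed at 12.7 ± 1.42 CPM in WT and 10.4 ± 2.74 CPM in Het, with overlap. The groups of experiments 1 and 2 differ in experiment as well as in genotype label, so a step between them cannot be told apart from the experiment.

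In order of level, the other members split in different places. Anln had the same breaks as Ect2 and in addition a gap between Het-NTD (226 ± 4.92 CPM) and Het (217 ± 3.49 CPM). Kif20b also had its 3 groups of experiment 1 on top. For Gas2l3 the group order began with WT of experiment 1 (30.1 ± 3.58 CPM) and WT of experiment 2 (20.8 ± 0.51), and the libraries labelled KO (11.9 ± 2.04) and KO-NTD (11.5 ± 1.34) were the lowest of the fibroblasts. For Cep55 WT of experiment 1 (48.0 ± 4.55), WT of experiment 2 (39.1 ± 1.30) and WT-NTD (36.0 ± 0.69) stood apart from one another and from the other 4 fibroblast groups, which overlapped in a chain between 26.4 ± 1.62 and 29.4 ± 1.62 CPM. The 7 fibroblast groups of Cit also overlapped in an unbroken chain, from 45.0 ± 4.84 down to 33.5 ± 2.98 CPM.

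**Figure D2:**
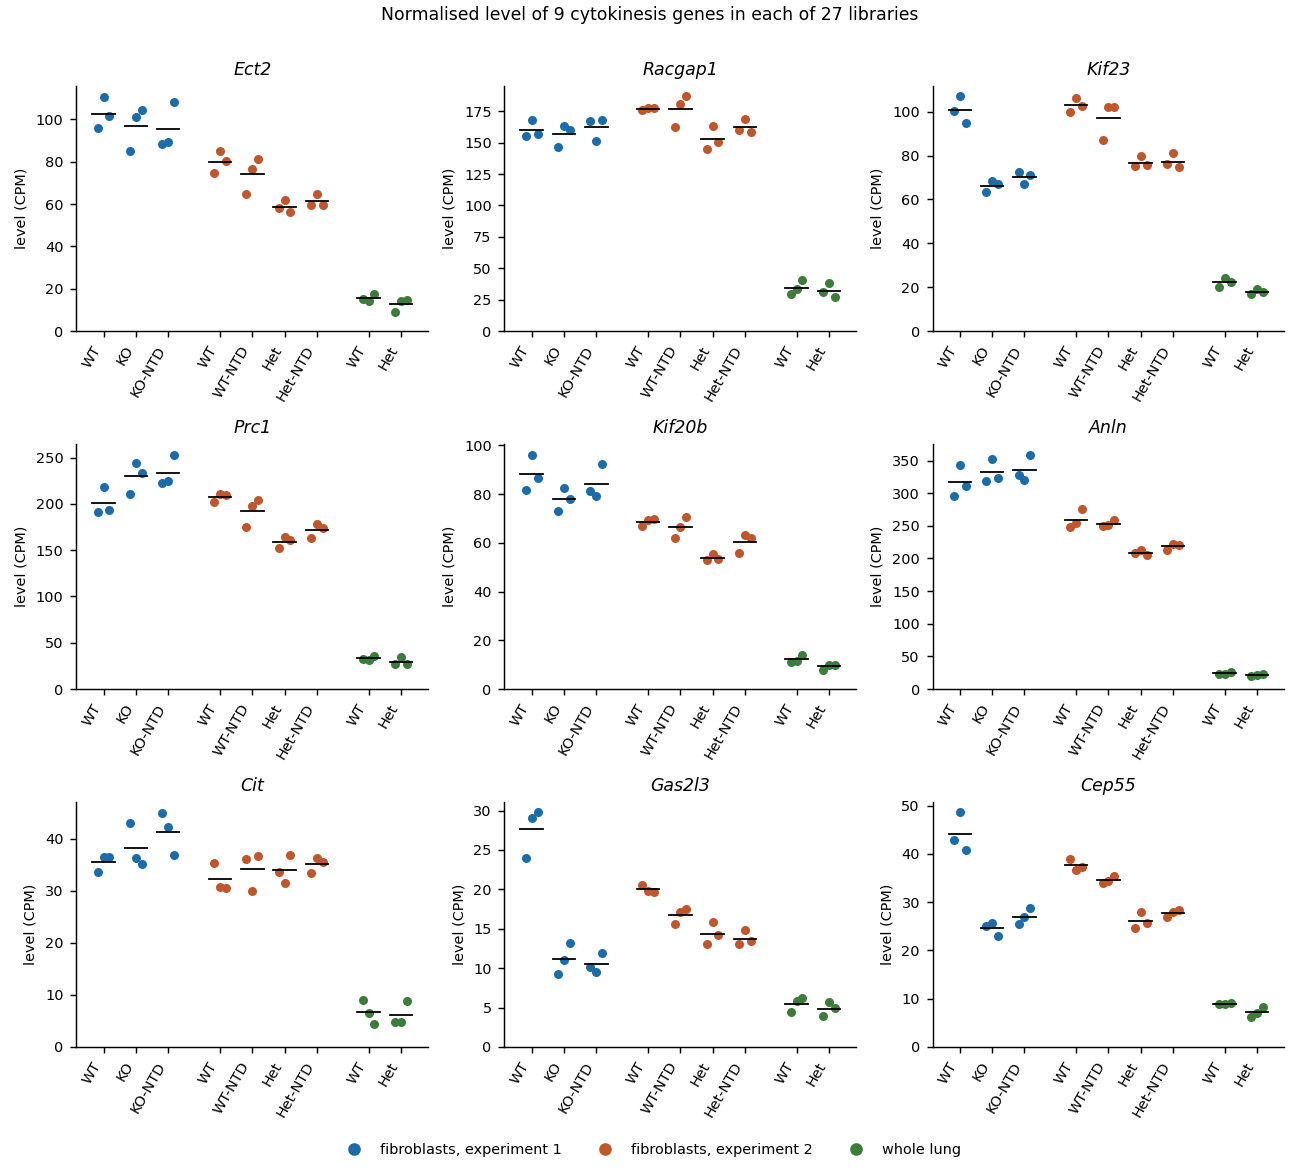
Level of each of the 9 genes (vertical axis, CPM scaled within each experiment, from 0) in the 27 libraries; each point is 1 library and each bar the mean of 3. Lung values sit far below fibroblast values in all 9 panels, Het values lie below WT values in experiment 2 for every gene but Cit, and Kif23, Gas2l3 and Cep55 are the genes low in both groups labelled KO.

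Levels of different genes were compared per kilobase of exon. In WT fibroblasts of experiment 2, Anln (29.8 ± 1.61 CPM per kb), Prc1 (26.2 ± 0.54) and Racgap1 (26.0 ± 0.08) were the most abundant. Ect2 (15.4 ± 0.95), Kif23 (13.5 ± 0.41), Cep55 (13.5 ± 0.45) and Kif20b (10.3 ± 0.21) followed. Gas2l3 (2.96 ± 0.07) and Cit (2.04 ± 0.18) were the least abundant. In WT lung the order began with Racgap1 (4.03 ± 0.62 CPM per kb), Prc1 (3.35 ± 0.21) and Cep55 (2.56 ± 0.04), and Anln, first in fibroblasts, had rank 6 at 2.21 ± 0.18. Against WT fibroblasts of experiment 2, all 9 members were called lower in WT lung, where 34.1% of all genes were. Anln had the largest difference of the 9 (log2 −3.77 ± 0.10 SE, edgeR adjusted p = 2.0e-10) and Gas2l3 the smallest (−2.22 ± 0.17, adjusted p = 2.9e-07). The tissues were separate sets of libraries, and in bulk RNA a smaller number of dividing cells and less RNA per dividing cell cannot be told apart. This holds for each comparison below.

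Het fibroblasts of experiment 2 had less RNA of 8 of the 9 members than WT fibroblasts, and Cit was the exception. The 8 genes fell by 13.6 to 30.5%. The title of the series speaks of Ect2, RhoA and mDia1, so the comparison bears on whether the Ect2 transcript itself differed between these genotype labels. A gene was called when the edgeR quasi-likelihood test gave a Benjamini-Hochberg adjusted p under 0.05 over all genes tested. Of 14314 genes, 8.61% were called lower, against 8 of 9 members. The members' median log2 difference was −0.38 and that of all genes was 0.01. For each of the 8 genes the 3 Het libraries lay below the 3 WT libraries. The share of all genes that separated without overlap is not given here, for this or any other comparison.

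Ect2, the RhoA exchange factor, was at 74.7, 84.9 and 80.5 CPM in WT and at 57.9, 61.8 and 56.0 CPM in Het. All Het values were under the lowest WT value, and the log2 difference was −0.45 ± 0.08 (edgeR adjusted p = 0.0027, 95% interval −0.62 to −0.28). Of the centralspindlin pair, Kif23 fell from 99.7, 106 and 102 CPM to 75.1, 79.6 and 75.7 CPM (−0.42 ± 0.06, adjusted p = 9.3e-04). Racgap1, its partner, was at 176, 177 and 177 CPM in WT and at 145, 163 and 150 CPM in Het. Its difference was the smallest of the 8 (−0.21 ± 0.06, edgeR adjusted p = 0.0234), and the call was lost when any 1 of 4 libraries was left out (WT 2 or 3, Het 1 or 3; adjusted p 0.0551 to 0.0893).

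The midzone genes moved by similar amounts. Prc1, the microtubule cross-linker, was at 202, 210 and 210 CPM in WT and 152, 164 and 161 CPM in Het (−0.38 ± 0.06, edgeR adjusted p = 0.0014). Prc1 shares 911 of its exon bases (11.1%) with Rccd1 on the opposite strand. With a kit that does not mark strand, reads of the 2 genes in these bases cannot be told apart. Rccd1 was counted at 8.36 to 9.76 CPM in WT and 10.4 to 12.1 CPM in Het, without overlap but not called (edgeR adjusted p = 0.0651). In experiment 1 Rccd1 was at 8.11 to 9.11 CPM in WT, 9.21 to 9.93 CPM in the libraries labelled KO and 7.28 to 8.21 CPM in KO-NTD. The part of Rccd1 reads in the Prc1 counts was not tested. Kif20b, the midzone kinesin, was at 66.9, 69.3 and 69.8 CPM against 53.1, 55.4 and 53.3 CPM (−0.35 ± 0.06, adjusted p = 0.0019).

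The ring genes split. Anln was at 249, 254 and 275 CPM in WT and 208, 213 and 205 CPM in Het (−0.31 ± 0.04, edgeR adjusted p = 6.0e-04). Cit was at 35.4, 30.7 and 30.5 CPM in WT and 33.7, 31.6 and 36.8 CPM in Het, with interleaved values. The interval of the Cit difference, −0.11 to 0.27, leaves room for a fall of 0.11 on the log2 scale but not for one of the size seen in Ect2.

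The 2 abscission genes had the largest differences. Cep55, the midbody ESCRT recruiter, was at 38.9, 36.7 and 37.2 CPM in WT and at 24.6, 28.1 and 25.8 CPM in Het (−0.53 ± 0.06, edgeR adjusted p = 1.7e-04). Gas2l3, the actin and microtubule linker, was at 20.5, 19.8 and 19.7 CPM against 13.0, 15.8 and 14.2 CPM (−0.48 ± 0.08, adjusted p = 0.0030). Both kept their calls when any library was left out, as did Ect2, Kif23, Prc1, Kif20b and Anln. Macrophage markers moved with this comparison, with 10 of 11 called lower in Het (median log2 −2.43) and none of the 11 at 0 in any group, while 0 of 8 fibroblast markers were called. Skeletal muscle markers moved the other way: 2 of the 3 tested were called higher in Het (median log2 2.27), and the 5 listed summed to 9.29 to 19.9 CPM in WT and 41.4 to 63.5 CPM in Het. Of 3 endothelial markers tested, 1 was called higher and 1 lower, and of 4 epithelial keratins 1 was called lower. The part of these cells in the members' difference was not tested.

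In experiment 1 the libraries labelled KO had less RNA of 3 members than WT: Gas2l3, Cep55 and Kif23. Ect2 and the other 5 did not pass the test. Of 14551 genes, 0.323% were called lower, against 3 of 9 members, and the members' median log2 difference was −0.09. Gas2l3 was at 24.0, 29.1 and 29.8 CPM in WT and 9.23, 11.03 and 13.2 CPM in the libraries labelled KO, and fell by 59.6% (log2 −1.31 ± 0.15, edgeR adjusted p = 0.0076). The Gas2l3 call was lost without KO library 2 (adjusted p = 0.0584). Cep55 was at 42.9, 48.6 and 40.9 CPM against 25.2, 25.6 and 23.1 CPM (−0.84 ± 0.08, adjusted p = 0.0036). Kif23 was at 100, 107 and 94.99 CPM against 63.4, 68.3 and 67.0 CPM (−0.61 ± 0.06, edgeR adjusted p = 0.0036). For these 3 genes the libraries labelled KO lay below the WT libraries without overlap. The share of all genes that did so is not given here. A stretch of Gas2l3 of 200 bases or more matched other transcripts at 95% identity or more, and no other member had such a match.

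The other 6 members overlapped between WT and the libraries labelled KO. Ect2 was at 96.1, 111 and 102 CPM in WT and 85.0, 101 and 104 CPM in the libraries labelled KO (−0.09 ± 0.10, interval −0.32 to 0.15, edgeR adjusted p = 0.796). Racgap1 was at 155, 168 and 157 CPM against 146, 164 and 160 CPM. Prc1 was at 192, 219 and 194 CPM against 211, 245 and 234 CPM, and its log2 difference of 0.19 ± 0.08 had an adjusted p of 0.389. Kif20b was at 81.6, 96.1 and 86.7 CPM against 73.2, 82.6 and 77.8 CPM, with an interval of −0.36 to 0.01. Anln (296, 343 and 311 CPM against 319, 353 and 323 CPM) and Cit (33.7, 36.5 and 36.4 CPM against 43.1, 36.2 and 35.1 CPM) differed by 0.07 and 0.10 on the log2 scale, neither called. No macrophage marker was called in this comparison.

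**Figure D3:**
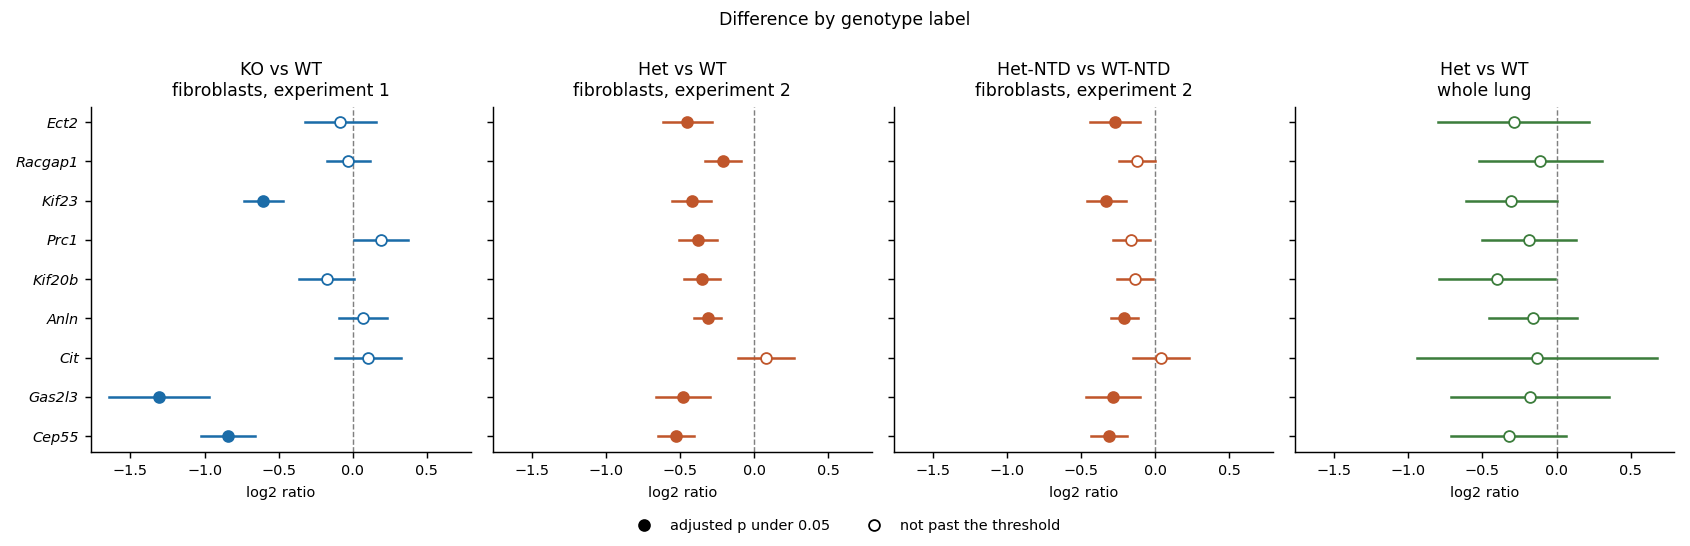
Log2 ratio (horizontal axis) with its 95% interval for each of the 9 genes in 4 comparisons by genotype label; filled points have an edgeR adjusted p under 0.05. In all, 8 points are filled for Het in fibroblasts, 3 for KO, 5 for Het-NTD against WT-NTD and none in lung, where all 9 points lie left of 0.

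The KO and Het effects were compared directly in a joint fit of the 21 fibroblast libraries, each effect taken against WT of its own experiment. The effects differed for 3 members. Prc1 was higher by 0.55 ± 0.10 in the KO effect (edgeR adjusted p = 0.0149) and Anln by 0.37 ± 0.08 (adjusted p = 0.0316), where 0.672% of 14738 genes were called higher. Gas2l3 was lower, with a difference of −0.85 ± 0.16 (edgeR adjusted p = 0.0217), where 0.828% of genes were called lower. Prc1 kept this call whichever library was left out. Anln lost it in 8 of 12 such fits and Gas2l3 in 5. For Ect2 the effects differed by 0.35 (interval 0.07 to 0.63, adjusted p = 0.169), so a smaller KO effect was not called, and without KO library 1 it was (0.43, adjusted p = 0.0425). The Cep55 effects differed by −0.33 (adjusted p = 0.084), also called without that library (−0.35, adjusted p = 0.0377). KO library 1 also had the lowest macrophage marker sum of its group. Its skeletal muscle markers summed to 74.4 CPM, against 10.4 and 10.7 CPM in KO libraries 2 and 3. Chi-square per degree of freedom, which grows with difference beyond sampling noise, was 115 and 113 between KO library 1 and the others. It was 18.3 between KO libraries 2 and 3. The part of this library's difference in these results was not tested. The 2 genotype labels were never sequenced in the same experiment, so the label and the experiment cannot be told apart here.

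Ratios between members within a library do not depend on its total. Racgap1 and Kif23 assemble in equal numbers in centralspindlin, and their RNA ratio per kilobase was 1.73, 1.75 and 1.84 in WT of experiment 1. It was 2.58, 2.67 and 2.67 in the libraries labelled KO and 2.56, 2.52 and 2.65 in KO-NTD. In experiment 2 the ratio was 1.97, 1.86 and 1.93 in WT, 2.15, 2.29 and 2.22 in Het, 2.09, 1.98 and 2.04 in WT-NTD and 2.35, 2.32 and 2.38 in Het-NTD. The ratio was above WT in every KO and Het library, by 0.57 and 0.21 on the log2 scale. It was also above WT in every WT-NTD library and above Het in every Het-NTD library, by 0.08 in each case. For 3 against 3 libraries the exact two-sided permutation test cannot go below p = 0.1, and these 4 comparisons gave that value. KO-NTD overlapped KO (log2 −0.03, exact permutation p = 0.2). More pairs and comparisons were tested this way than are given here, with no adjustment for their number. Lung values of 1.66, 1.54 and 2.003 in WT and 2.06, 2.21 and 1.68 in Het overlapped.

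The abscission genes were also set against Prc1. Gas2l3 to Prc1 per kilobase was 0.147, 0.156 and 0.180 in WT of experiment 1 and 0.0512, 0.0527 and 0.0659 in the libraries labelled KO. In experiment 2 the same ratio was 0.119, 0.110 and 0.110 in WT and 0.100, 0.113 and 0.103 in Het, with overlap. It was 0.104, 0.101 and 0.100 in WT-NTD, below every WT library (log2 −0.15), and 0.0933, 0.0969 and 0.0901 in Het-NTD, below every Het library (−0.17), each at the smallest exact permutation p, 0.1. In experiment 1 KO-NTD overlapped KO for this ratio (−0.09, exact permutation p = 0.7). Cep55 to Prc1 was 0.633, 0.630 and 0.598 in WT and 0.338, 0.297 and 0.279 in the libraries labelled KO. In Het fibroblasts it was 0.457, 0.484 and 0.452, below the WT values of 0.547, 0.495 and 0.503. Ect2 to Racgap1 was 0.558, 0.629 and 0.596 in WT and 0.527, 0.497 and 0.489 in Het of experiment 2, again without overlap. In experiment 1 Ect2 to Racgap1 overlapped between WT (0.815 to 0.864) and the libraries labelled KO (0.763 to 0.856).

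**Figure D4:**
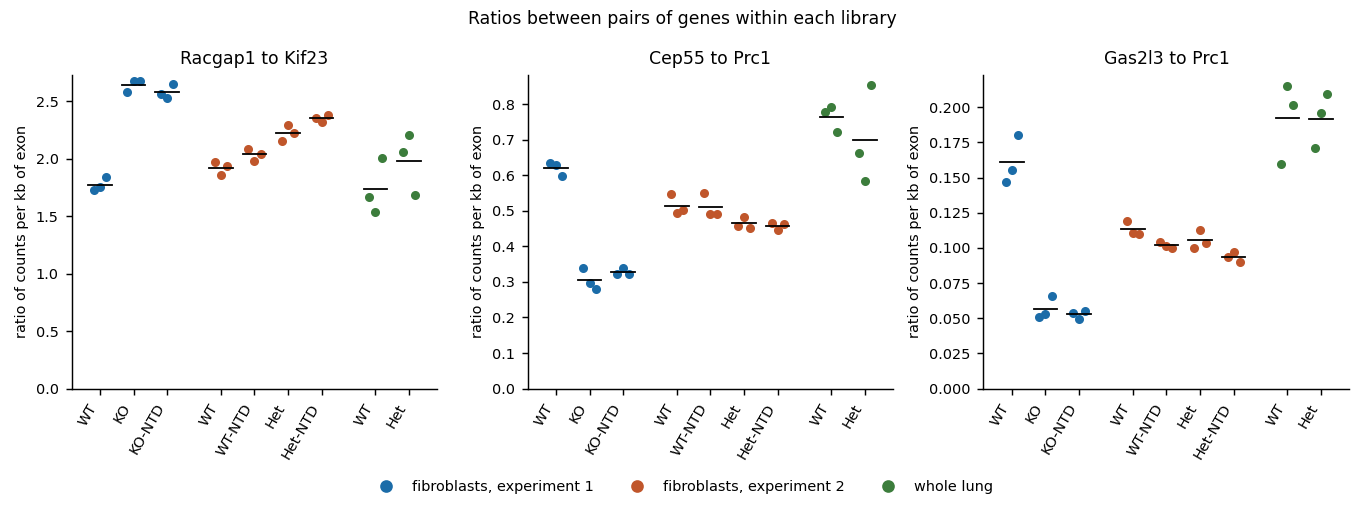
Ratio of counts per kilobase of exon (vertical axis, from 0) for 3 pairs of genes within each library; points are libraries and bars are means of 3. Racgap1 to Kif23 lies above WT in both groups labelled KO and in Het, and Gas2l3 to Prc1 is at 0.0659 or less in all 6 libraries labelled KO or KO-NTD.

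An NTD in the label went with no called change in any member. In KO-NTD against KO, 0 of 9 members were called by edgeR (0.00687% of genes were) and 0 by DESeq2. In edgeR 0 members had an unadjusted p under 0.05, against 972 of 14551 genes. The members' differences ran from −0.08 for Gas2l3 to 0.13 for Cep55. In WT-NTD against WT, 0 of 9 members were called by edgeR, where 0.014% of genes were. Gas2l3 and Cep55 had an unadjusted p under 0.05 in edgeR, as did 1055 of all 14314 genes, and DESeq2 called 0 members. Gas2l3 was at 15.5, 17.1 and 17.5 CPM in WT-NTD, below all 3 WT libraries (−0.26 ± 0.08, adjusted p = 0.654). Cep55 at 34.0, 34.4 and 35.4 CPM was likewise below WT without overlap (−0.12 ± 0.06, edgeR adjusted p = 0.673).

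In Het-NTD against Het, 0 of 9 members were called, again where 0.014% of genes were. Kif20b had an unadjusted p under 0.05 in edgeR, as did 896 of all 14314 genes, and DESeq2 called 0 members. Kif20b was at 56.0, 63.1 and 62.2 CPM in Het-NTD and at 53.1 to 55.4 CPM in Het (0.16 ± 0.06, adjusted p = 0.729). Ect2 was at 59.7, 64.6 and 59.7 CPM in Het-NTD and 64.8, 76.3 and 81.3 CPM in WT-NTD, and its intervals for NTD were −0.10 to 0.23 in Het and −0.28 to 0.06 in WT. The NTD effect in Het minus that in WT was called for 0 of 9 members and for 0% of genes. Prc1, Kif20b and Cep55 had an unadjusted p under 0.05 in edgeR (differences of 0.22, 0.21 and 0.21), and DESeq2 called 0 members. Of all 14314 genes, 711 had such a p. These comparisons share their WT and Het libraries with the Het comparison.

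**Figure D5:**
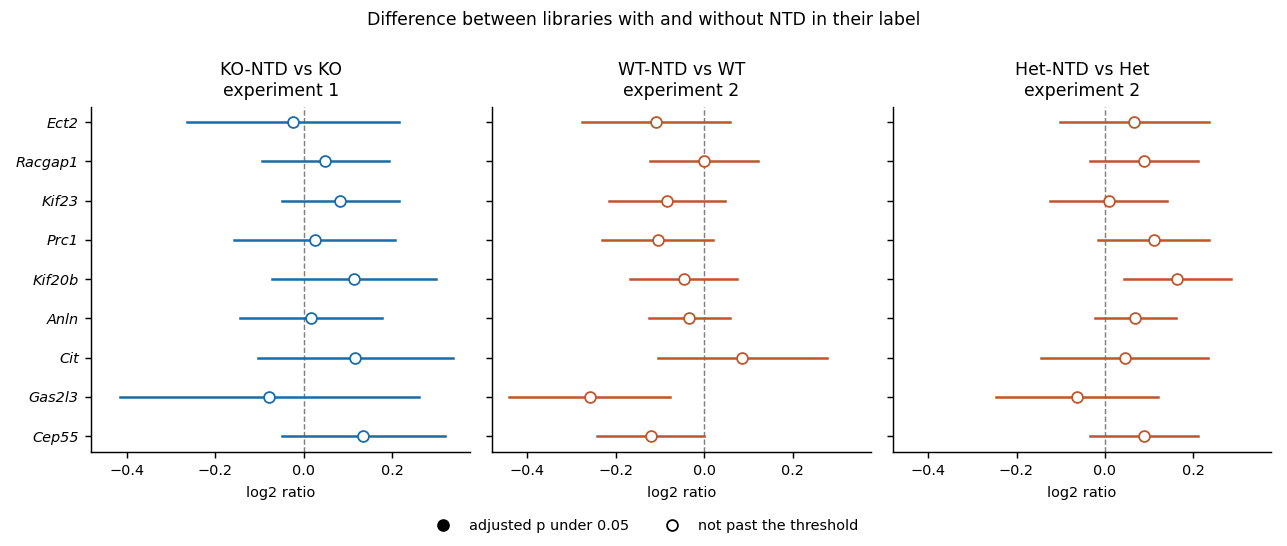
Log2 ratio (horizontal axis) with its 95% interval for each of the 9 genes between libraries with and without NTD in the label; an open point did not pass an edgeR adjusted p of 0.05. All 27 points are open, and the lowest is Gas2l3 in WT-NTD against WT at −0.26.

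KO-NTD against WT gave the same 3 genes as KO against the same WT libraries, and 0.378% of genes were called lower. Gas2l3 was at 10.2, 9.51 and 11.98 CPM in KO-NTD (−1.39 ± 0.15, edgeR adjusted p = 0.0051). Cep55 was at 25.4, 26.9 and 28.8 CPM (−0.71 ± 0.08, adjusted p = 0.0071) and Kif23 at 72.7, 66.8 and 71.0 CPM (−0.52 ± 0.06, adjusted p = 0.0059). Each lay below all 3 WT libraries. Ect2, at 88.2, 89.1 and 108 CPM, overlapped WT (−0.11, adjusted p = 0.705).

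Het-NTD and WT-NTD share no library with the Het and WT groups, but the same fit and estimate of spread served both comparisons. Between Het-NTD and WT-NTD, 5 of 9 members were called lower, against 6.24% of genes, and the members' median was −0.21. The 5 were Ect2 (−0.27 ± 0.08, edgeR adjusted p = 0.0397), Kif23 (−0.33 ± 0.06, adjusted p = 0.0047), Anln (−0.21 ± 0.04, adjusted p = 0.0075), Gas2l3 (−0.28 ± 0.08, adjusted p = 0.0479) and Cep55 (−0.32 ± 0.06, adjusted p = 0.0038). All 5 had Het-NTD below WT-NTD without overlap, and the share of all genes that did so is not given here. Kif23 was at 76.1, 81.0 and 74.6 CPM against 87.0, 102 and 102 CPM, and Anln at 214, 222 and 221 CPM against 250, 251 and 259 CPM. Prc1 (163, 179 and 174 CPM against 175, 198 and 205 CPM), Racgap1 (160, 168 and 159 CPM against 163, 181 and 187 CPM) and Kif20b overlapped and were not called. The count ran from 3 to 7 when 1 library was left out. Of these 6 fits, Ect2 and Gas2l3 were called only in the one without WT-NTD library 1, where Racgap1 and Prc1 were called as well. With only the 2 groups in the fit, Ect2 and Gas2l3 were not called (adjusted p = 0.0625 and 0.0599). WT-NTD library 1 was the lowest of its group for Ect2, Racgap1, Kif23, Prc1, Kif20b, Anln, Gas2l3 and Cep55. All 11 macrophage markers were called lower in Het-NTD (10.6 to 16.1 CPM against 68.3 to 163 CPM in sum). Of 3 skeletal muscle markers tested, 2 were called higher (median log2 2.78), with sums of 35.4 to 46.8 CPM in Het-NTD and 10.6 to 42.5 CPM in WT-NTD and Ckm at 0 in all libraries of both groups. Of 3 alveolar type 2 markers tested 1 was called higher, and of 3 endothelial markers 1 was called higher and 1 lower. The part of all these markers in the result was not tested.

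In lung no member was called. The edgeR test called 0 of 9 members and 0% of genes, and DESeq2 called 0 members. Among the members Kif20b alone had an unadjusted p under 0.05 in edgeR, as did 114 of 15933 genes. All 9 estimates were below 0, as were 48.0% of those of all genes, with a median of −0.18 against 0.01 for all genes. Kif20b was at 11.2, 11.7 and 13.9 CPM in WT and 7.89, 9.85 and 10.1 CPM in Het (−0.40 ± 0.17, edgeR adjusted p = 1). Kif23 (19.99, 24.4 and 22.5 CPM against 16.7, 19.4 and 17.9 CPM) and Cep55 (8.97, 8.91 and 9.15 CPM against 6.26, 7.03 and 8.27 CPM) were also below WT in each Het library. Ect2 was at 14.9, 14.02 and 17.3 CPM in WT and 8.86, 14.3 and 14.6 CPM in Het, where Het library 1 was low and the other two lay within the WT range. Its interval of −0.80 to 0.22 holds both no difference and the fibroblast value. The lung libraries differed within a group. Airway markers summed to 26190, 19652 and 8501 CPM in Het, and skeletal muscle markers to 3.99, 446 and 330 CPM in WT. Chi-square per degree of freedom was 211 and 215 between Het library 3 and the others, and 51.0 between Het libraries 1 and 2. The part of this unevenness in the lung result was not tested. The Het effect in lung minus that in fibroblasts was called for 0 of 9 members by edgeR and 0 by DESeq2, where edgeR called 1.12% of genes. In edgeR 0 members had an unadjusted p under 0.05 for this difference, against 1844 of 16364 genes. For Ect2 this difference was 0.17 (interval −0.32 to 0.67).

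Genes around the members were read from lists of the same pathway. Rhoa, the target of Ect2, was at 510 to 513 CPM in WT and 504 to 515 CPM in Het fibroblasts (−0.01, edgeR adjusted p = 0.908). Diap1, which encodes the formin mDia1, was at 55.6 to 58.7 CPM against 56.5 to 61.9 CPM (0.07, adjusted p = 0.373). Neither gene was called in any comparison by genotype or NTD label. In experiment 1, however, Rhoa was at 514 to 524 CPM in the libraries labelled KO and 525 to 538 CPM in KO-NTD. Both groups lay below every WT library (545 to 572 CPM). The KO difference of Rhoa was −0.11 (interval −0.19 to −0.03, edgeR adjusted p = 0.287). Diap1 overlapped between KO and WT and lay above WT in every KO-NTD library (0.17, edgeR adjusted p = 0.433). Of 13 RhoA genes and regulators, 2 rose and 2 fell in Het, with a median of 0.03, where 7.89% of all genes were called higher and 8.61% lower. The GTPase-activating proteins Arhgap11a (−0.24, adjusted p = 0.0045) and Arhgap19 (−0.23, adjusted p = 0.0151) fell, and the exchange factor Arhgef2 rose (0.44, adjusted p = 0.0176). Of 15 ring genes, 1 rose and 3 fell (median −0.05). The septin Sept9 rose by 0.34 and the kinase Rock2 and the formin Diap3 fell by 0.22 and 0.25.

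Other genes of the midzone fell as well. Of 8 passenger-complex, motor and kinase genes of the midzone, 5 fell in Het and 0 rose (median −0.26). Plk1, the kinase that primes Ect2 binding to centralspindlin, fell by 0.53 (edgeR adjusted p = 3.0e-04), the kinesin Kif20a by 0.40 (adjusted p = 2.7e-04) and the passenger subunit Birc5 by 0.30 (adjusted p = 0.0050). Of 21 ESCRT and abscission genes, 1 rose (Chmp5, 0.16, adjusted p = 0.0452) and 0 fell (median 0.02). In the wider cell cycle, 14 of 20 mitotic genes (median −0.33) and 12 of 20 G1/S genes (median −0.21) fell in Het and 0 of either list rose. The members' median of −0.38 stands beside these values, and the part of a change in the number of dividing cells was not tested.

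The same lists were read in experiment 1. In KO against WT, 9 of 20 mitotic genes fell (median −0.25), led by Nek2 (−1.41), Cenpa (−0.99) and cyclin B1, Ccnb1 (−0.74), and 0 of 20 G1/S genes were called (median −0.04). Kif20a fell by 0.48 (edgeR adjusted p = 0.0188), the only called gene of the 8 at the midzone. Of the RhoA, ring and ESCRT lists 0 genes were called. Kif23, Cep55 and Gas2l3 thus fell beside Kif20a, Nek2, Cenpa and Ccnb1, while Ect2, Racgap1, Kif20b, Prc1, Anln and Cit were not called. In the joint fit of both experiments the KO effect minus the Het effect was called lower for 3 of the 20 mitotic genes, Nek2 (−0.82, edgeR adjusted p = 9.5e-04), Cenpa (−0.65, adjusted p = 9.5e-04) and Cenpf (−1.03, adjusted p = 0.0015), and higher for 1. It was called higher for 1 of 20 G1/S genes, Rrm2 (0.60, adjusted p = 0.0011), 1 of 8 midzone genes, Plk1 (0.46, adjusted p = 0.0145), and 1 of 15 ring genes, Diap3 (0.44, adjusted p = 0.0258). No gene of the RhoA and ESCRT lists was called there, and the label and the experiment cannot be told apart in these differences either.

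By correlation over both experiments, the genes closest in pattern to Ect2 were not members. Over the 21 fibroblast libraries, with each gene centred on its mean in an experiment, the 5 of 9395 genes with the highest Pearson correlation were Hat1 (r = 0.96, Spearman rho = 0.95), a histone acetyltransferase; Slc25a15 (0.95, 0.93), a mitochondrial ornithine carrier; Dek (0.95, 0.93), a chromatin protein; Nuf2 (0.95, 0.95), of the kinetochore; and Mcm5 (0.94, 0.89), of the replicative helicase. Among the members Kif20b had rank 46 (r = 0.88) and Racgap1 rank 86 (0.86). Anln had rank 191 (0.82), Prc1 308 (0.77), Kif23 515 (0.72), Cep55 975 (0.62) and Gas2l3 1300 (0.54). These ranks mix 2 experiments that differed. In experiment 2 alone r with Ect2 was 0.98 for Kif23 and 0.96 for Prc1, beside 0.97 for Hat1 and 0.98 for Slc25a15, and in experiment 1 alone it was 0.45 for Kif23 and 0.30 for Prc1, beside 0.92 for Hat1. Cit had rank 7620 with r = −0.53, and Foxm1 rank 4942 with r = −0.10. Among the 28 pairs of the 8 members without Cit, r ran from −0.05 to 0.95 with a median of 0.72, and from 0.20 to 0.94 with a median of 0.69 when genes were centred on their group means. The 8 pairs with Cit ran from −0.54 to −0.14. These correlations share libraries, depth and growth state, and they are descriptions.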

How the data were processed

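Whole-number read counts by gene symbol, deposited by the authors as a single table, cover all 27 libraries. Per the labels' protocols, a TruSeq v2 kit was used on 200 ng of RNA, and it keeps no strand information. Per the submitters' processing notes, the tools were featureCounts 1.4.6 with Subread, Bowtie2 2.2.6 and TopHat2 2.0.14, on build mm10. Which annotation and strand option the counting used is not given in the sources used here.

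Counts were tested with edgeR 4.0.16 in R 4.3.3: filterByExpr, TMM scaling, robust quasi-likelihood F test, two-sided, Benjamini-Hochberg adjustment over all genes of a fit, threshold 0.05. Experiment 1 held 9 libraries (14551 genes, 6 residual degrees of freedom), experiment 2 held 12 (14314 genes, 8), lung 6 (15933 genes, 4), the lung and fibroblast comparison 12 (16364 genes, 8) and the KO and Het comparison 21 (14738 genes, 14). Alternatives were DESeq2 1.42.0, RLE scaling, no filter, only the 2 groups compared, a replicate block and leaving out each library. The fit was also run on counts simulated from its own estimates of spread, which cannot show that the model suits these libraries. Correlations used log2 CPM with a prior count of 2 and genes with a mean of at least 3. Exon lengths and gene overlaps came from GENCODE M21 on GRCm38, the assembly of mm10, and promoters from RefSeq.

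The closest libraries of a group differed by more than sampling noise (chi-square per degree of freedom 5.88 or more), so no libraries were merged as duplicates. This does not show that they came from separate cultures or animals. Among genes with 1 to 30 counts, 61.5 to 67.3% of counts were even, for which no cause was tested. All 9 members were named in every comparison. Up to 3 genes of each list with the lowest p were named, with Foxm1, Rhoa, Diap1 and the 5 genes most like Ect2. Rccd1 was added after its overlap with Prc1 was seen. Markers were also listed for alveolar type 1, airway, endothelial, erythroid, keratin, skeletal muscle and lymphoid cells. The members, lists and markers were chosen with earlier results of these data known.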

Additional observations from a re-analysis of the deposited data

Results flagged for a closer look

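For 3 members the effect of the KO label in experiment 1 differed from the effect of the Het label in experiment 2 by the interaction test of edgeR over 14738 genes. The difference was 0.55 on the log2 scale for Prc1 (adjusted p = 0.0149), 0.37 for Anln (adjusted p = 0.0316) and −0.85 for Gas2l3 (adjusted p = 0.0217). Prc1 and Anln were lower than WT in Het and slightly above WT, uncalled, in the libraries labelled KO, and Gas2l3 was lower in both and more so in KO. The genotype label and the experiment cannot be told apart in this design.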

How the results depend on the processing

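Of the single-member values under the alternatives, 1227 kept their direction and side of the threshold, 31 lost a call, 6 gained one and 41 changed sign, the last in uncalled values when 1 library was left out. The 3 members called in KO and the 8 called in Het kept their counts under DESeq2, RLE scaling, no filter, the replicate block and only the 2 groups. Het-NTD against WT-NTD called 5 members, 3 with only the 2 groups, 6 with the replicate block (Prc1 added, adjusted p = 0.0262) and 3 to 7 without 1 library. Without the filter Gas2l3 was not called there (adjusted p = 0.0609). The KO minus Het difference called 1 member lower, 2 by DESeq2 (Cep55 added) and 0 to 2 without 1 library, and 2 higher, 1 to 3 without 1 library. The cause of these changes was not tested.

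The replicate numbers did not pair the libraries: same-numbered libraries correlated at −0.48 to 0.61 in experiment 1, −0.21 to 0.45 in experiment 2 and −0.34 to 0.12 in lung, and not every library was closest to its own number. The replicate block changed no other member's call.

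Without 1 library, uncalled log2 values changed sign within these ranges. For Racgap1 they were −0.062 to 0.014 in KO against WT, −0.010 to 0.063 in KO-NTD against WT, −0.045 to 0.052 in WT-NTD against WT, −0.26 to 0.017 in lung and −0.046 to 0.23 in lung minus fibroblasts. For Cit they were −0.051 to 0.088 in Het-NTD against WT-NTD, −0.0062 to 0.10 in Het-NTD against Het, −0.13 to 0.021 in the NTD interaction, −0.48 to 0.16 in lung, −0.58 to 0.082 in lung minus fibroblasts and −0.097 to 0.069 in KO minus Het. In KO-NTD against KO they were −0.12 to 0.032 for Ect2, −0.032 to 0.073 for Prc1, −0.028 to 0.063 for Anln and −0.19 to 0.059 for Gas2l3. In Het-NTD against Het they were −0.028 to 0.035 for Kif23 and −0.13 to 0.012 for Gas2l3. They were −0.065 to 0.011 for Anln in WT-NTD against WT and −0.12 to 0.053 for Kif20b in lung minus fibroblasts.

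Totals over all genes moved more. KO against WT called 47 genes lower by edgeR, 218 by DESeq2, 26 with only the 2 groups and 23 to 76 without 1 library, and KO-NTD against WT called 55, against 243 by DESeq2. Het against WT called 1232 lower, 772 with only the 2 groups and 706 to 1330 without 1 library, and Het-NTD against WT-NTD 893 and 400 to 907 without 1 library. The KO minus Het difference called 122 genes lower, 338 by DESeq2 and 25 to 700 without 1 library. The 76 in KO against WT and the 700 in this difference came from leaving out KO library 1. In lung the intervals of 8 members hold 0, and that of Kif20b (−0.80 to −0.01) does not. The biological coefficient of variation was 0.255 in the lung fit and 0.114 in that of experiment 2, both with 3 libraries a group.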
